A study of Tupaia belangeri with 6 samples.

Results

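Neurotrophins and their receptors are described here through 6 genes, the ligand genes BDNF and NTF3 and the receptor genes NTRK2, NTRK3, NGFR and SORT1. They were chosen as every row of the gene abundance tables that carries exactly that gene name, and TPM (a length-corrected transcript level relative to its library) was summed over rows of 1 gene ID on 1 chromosome. Of the 6 genes, 5 had a row among the 95863 genes of the tables, and no row was named BDNF.

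Neurotrophins are secreted growth factors that support the survival of neurons, the growth of axons and dendrites, and the strength of synapses. BDNF acts mainly through the receptor tyrosine kinase TrkB, encoded by NTRK2, and NT-3 acts mainly through TrkC, encoded by NTRK3. The p75 receptor, encoded by NGFR, binds all mature neurotrophins and, together with sortilin, encoded by SORT1, also binds their uncleaved precursors. In the cortex BDNF and TrkB are best known for activity-dependent plasticity of excitatory synapses, and TrkB is also made by astrocytes, largely in a form without the kinase.

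The tissue was prefrontal cortex (PFC), sequenced from 6 adult tree shrews (Tupaia belangeri). Of these 3 were females, with the numbers 1, 3 and 4, and 3 were males, with the numbers 1, 4 and 5. The animals received no treatment that the labels name, and the study's sample table lists every male at a greater age than every female, so that age and sex cannot be told apart. Libraries were made from polyadenylated RNA of bulk tissue, and in such data fewer cells of a type and less RNA per cell cannot be told apart. The 6 animals were not pooled, and each library is 1 animal.

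Marker genes of the PFC were checked first. Summed TPM of 5 neuronal markers lay between 5906 and 7478 for females and between 5613 and 6774 for males, and that of 5 astrocyte markers between 1404 and 2079 and between 1432 and 2184. Microglial markers (6 genes) summed to 220.0 to 236 TPM (females) and 162 to 304 TPM (males), endothelial markers (5 genes) to 364 to 432 and 325 to 491, and markers of striatal projection neurons (3 genes) to 139 to 272 and 112 to 451. For 3 of 9 marker lists the sexes did not overlap. Oligodendrocyte markers (3 genes) summed to 348 to 482 TPM (females) and 80.7 to 236 TPM (males), precursor markers (3 genes) to 125 to 166 and 56.1 to 97.9, and blood genes (4 genes) to 1288 to 2553 and 68.9 to 112. These separations were not shared by every gene of a list. MAG made up most of the oligodendrocyte sum, and MBP and MOG each overlapped (MOG 63.0 TPM in female 4, 76.4 TPM in male 1). Of the precursor markers OLIG2 and SOX10 were separated, whereas PDGFRA overlapped (females 5.30 to 17.3 TPM, males 7.68 to 12.9 TPM). HBG and HBQ1, both hemoglobin genes, were higher in females (limma, Benjamini-Hochberg adjusted p = 0.0104 for each), and neither was called without the mean-variance trend in limma. The share of TPM in loci without a strand was 2.30% to 3.33% in females, 2.67% in male 4, 5.16% in male 1 and 7.88% in male 5. How far these differences enter the values of the neurotrophin genes was not tested.

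Of the ligands, NTF3 was listed at or close to 0 in every library. NTF3 (TSDBGID.24087) lies on the minus strand of chromosome 6 from 35343008 to 35430268 in the genome build TS_3.0, a span of 87261 bp. It was listed at 0.00951 TPM in female 1 and 0.0123 TPM in male 1, and at 0 TPM in the other 4 animals. The mean read depth listed for the locus was no more than 0.00504. An exact 0 in these tables can be a failed estimate, because ATF4, a transcription factor that most cells make, was also listed at 0 in all 6 libraries. NTF3 did not pass the filter of at least 0.1 TPM in 3 or more libraries and was not tested.

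BDNF, the ligand of TrkB, is a protein-coding gene in the RefSeq annotation of the tree shrew (assembly TupChi_1.0), as are the other 5 genes, but no row of the TS_3.0 tables bears its name. In RefSeq, the nearest named genes on either side of BDNF are KIF18A, a kinesin motor gene, and LIN7C, a synaptic scaffold gene. The tables place both on chromosome 17. The interval between them, from 14696878 to 15151031 in TS_3.0, holds 14 loci, of which 1 has a gene name and 2 reached a median of 1 TPM. A short plus-strand locus of this interval, from 14790760 to 14791395, has the ID LINC-BDNF-4 and was listed at 0.565 TPM in male 4 and at 0 in the other 5 animals.

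The strongest locus of the interval was an unnamed minus-strand locus (MSTRG.20840) from 14838360 to 14898103, a span of 59744 bp. It measured 15.0, 24.0 and 15.1 TPM in females 1, 3 and 4 and 19.9, 23.0 and 21.98 TPM in males 1, 4 and 5. Female 3 had the highest value and the sexes overlapped. The female minus male difference of the mean log2(TPM + 1) was -0.28 (SE 0.245, limma with Benjamini-Hochberg adjusted p = 0.926). Next to it on the plus strand, MSTRG.20841 from 14898168 to 14989539 measured 1.37, 1.88 and 3.57 TPM in females 1, 3 and 4 and 3.71, 4.09 and 8.69 TPM in males 1, 4 and 5. All 3 males were above all 3 females at this locus, with a difference of -0.96 (SE 0.513, unadjusted p = 0.0943, adjusted p = 0.924 by limma). The tables pair neither locus with a gene symbol, so neither value was counted as BDNF.

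All 4 receptor genes were above 0 in every library, and NTRK2 was the highest. NTRK2 (MSTRG.30424), which encodes TrkB, lies on the plus strand of chromosome 2 from 174078223 to 174496141 and spans 417919 bp. It measured 216, 283 and 144 TPM in females 1, 3 and 4 and 210.0, 235 and 316 TPM in males 1, 4 and 5. The lowest library was female 4 and the highest male 5, and the sexes overlapped. The median of 225 TPM was above that of 97.7% of the tested genes.

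SORT1 (MSTRG.59130), which encodes the sorting receptor sortilin, lies on the plus strand of chromosome 7 from 93813103 to 93928842, a span of 115740 bp. It measured 113, 137 and 99.7 TPM in females 1, 3 and 4 and 113, 90.8 and 112 TPM in males 1, 4 and 5. The 6 libraries lay close together, with female 3 the highest and male 4 the lowest. The median of 113 TPM was above that of 94.6% of the tested genes.

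NTRK3 (MSTRG.35583), which encodes TrkC, lies on the plus strand of chromosome 22 from 40596559 to 41031438 and spans 434880 bp. Its values were 36.2, 42.8 and 33.4 TPM in females 1, 3 and 4 and 33.1, 64.3 and 59.9 TPM in males 1, 4 and 5. Males 4 and 5 stood above the other 4 animals, while male 1 had the lowest value of all. The median of 39.5 TPM was above that of 85.7% of the tested genes.

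NGFR (TSDBGID.9882), which encodes the p75 receptor, is the shortest of the receptor loci, on the plus strand of chromosome 15 from 70578352 to 70598962 (20611 bp). It measured 0.621, 1.22 and 0.843 TPM in females 1, 3 and 4 and 0.852, 1.98 and 1.09 TPM in males 1, 4 and 5. Male 4 was the highest and female 1 the lowest, and the sexes overlapped. The median of 0.971 TPM was above that of only 36.9% of the tested genes. The mean read depth listed for NGFR was between 0.869 and 2.37, against 116 to 204 for NTRK2, 80.6 to 128 for SORT1 and 14.9 to 24.9 for NTRK3, so that NGFR rests on the fewest reads of the 4 receptor genes.

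**Figure D1:**
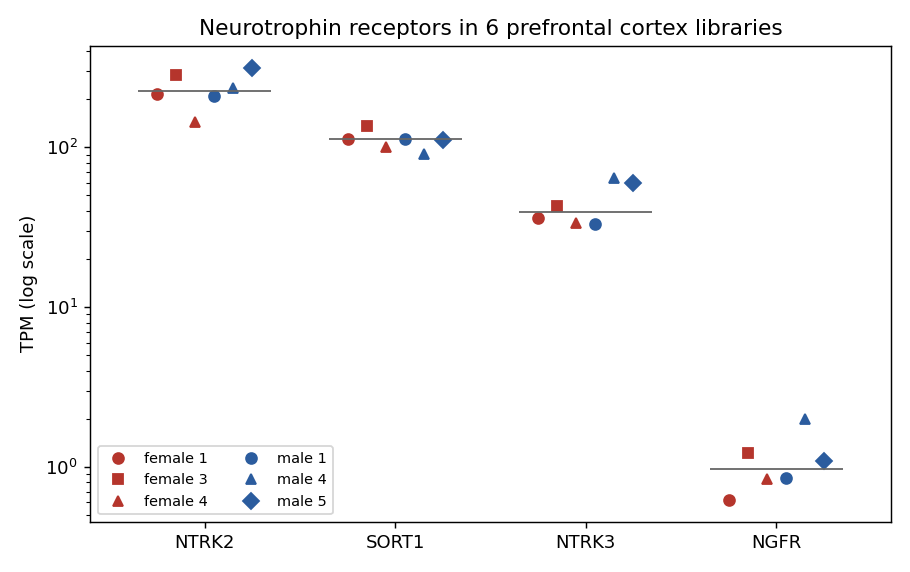
TPM of the 4 receptor genes in each of the 6 libraries on a log axis, with females in red, males in blue, 1 symbol per animal and a line at the median of the 6. NTRK2 (144 to 316 TPM), SORT1 (90.8 to 137 TPM), NTRK3 (33.1 to 64.3 TPM) and NGFR (0.621 to 1.98 TPM) occupy ranges that do not overlap.

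The order NTRK2, SORT1, NTRK3, NGFR held in 6 of 6 libraries, and no neighbours in this order overlapped in TPM. As a ratio the narrowest gap was between NTRK2 and SORT1, where the lowest NTRK2 value (144 TPM) was just above the highest SORT1 value (137 TPM). SORT1 and NTRK3 were separated by 90.8 against 64.3 TPM, and NTRK3 and NGFR by 33.1 against 1.98 TPM. TPM in these tables is summed over the transcripts of a locus. Mean depth was scaled to TPM units by the median TPM per unit of depth among loci without a strand, library by library. Relative to this scaled depth, TPM was 1.91 to 1.98 for NTRK2, 2.78 to 3.40 for NTRK3, 1.35 to 1.43 for SORT1 and 1 for NGFR (median of 1.49 over 12662 genes). On mean depth scaled to TPM units, a scale added after the data were seen, the order of the medians was the same, at 114.01 for NTRK2, 82.1 for SORT1 and 12.6 for NTRK3. On that scale the ranges of NTRK2 (75.7 to 164) and SORT1 (67.4 to 101) overlapped, although NTRK2 was the higher in 6 of 6 libraries.

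The spread between animals differed from gene to gene. The highest library was 1.504 times the lowest for SORT1, 1.94 times for NTRK3, 2.18 times for NTRK2 and 3.20 times for NGFR. Among the 13556 genes at 1 TPM or more in all libraries this ratio had a median of 1.98, with quartiles of 1.61 and 2.73. SORT1 varied less than most, with 16.7% of these genes below it, whereas NTRK3 (48.1%) and NTRK2 (60.0%) lay near the middle. The coefficient of variation over the 6 libraries was 14.0% for SORT1, 25.6% for NTRK2, 30.7% for NTRK3 and 43.6% for NGFR.

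The balance between the Trk receptors also varied between animals. In females 1, 3 and 4 the NTRK2 level was 5.97, 6.62 and 4.32 times that of NTRK3 in TPM, and in males 1, 4 and 5 it was 6.34, 3.65 and 5.27 times. The ratio was lowest in male 4 and highest in female 3, and the sexes overlapped. For SORT1 over NTRK3 the female ratios were 3.13, 3.19 and 2.99 and the male ratios 3.42, 1.41 and 1.87, in the same order. Males 4 and 5 were thus apart from the other 4 animals, among which this ratio stayed between 2.99 and 3.42. For NTRK2 over SORT1 the female ratios were 1.90, 2.07 and 1.45 and the male ratios 1.85, 2.59 and 2.82, again with males 4 and 5 the highest. These ratios depend on the scale. On scaled mean depth NTRK2 over NTRK3 was 5.89 to 10.8, NTRK2 over SORT1 1.08 to 1.99, and SORT1 over NTRK3 3.35 and 4.12 in males 4 and 5 and 6.87 to 7.85 in the other 4 animals. In TPM, NTRK3 over NGFR ranged from 32.4 to 58.3 (10.2 to 18.4 on scaled mean depth), and SORT1 over NGFR from 45.7 to 183 (34.1 to 135).

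**Figure D2:**
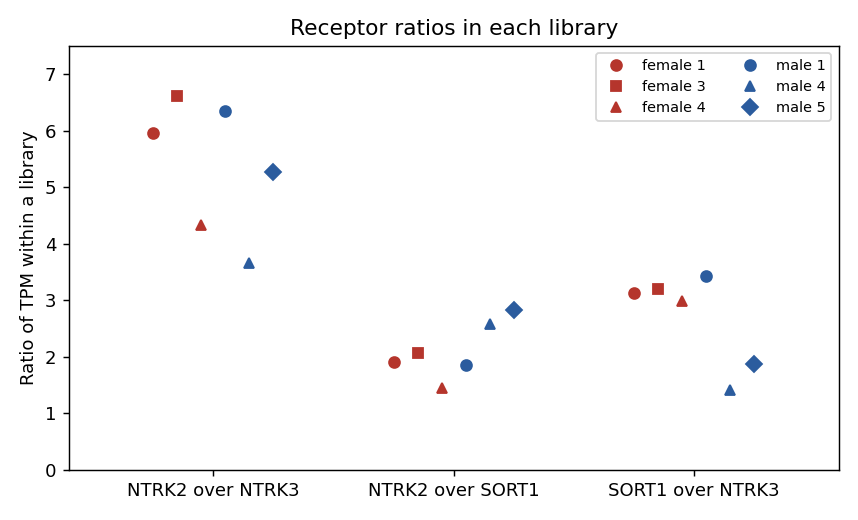
Ratios of TPM between receptor genes in each library, with 1 point per animal, females and males in different colours and a linear axis of the ratio. SORT1 over NTRK3 sits at 1.41 and 1.87 in males 4 and 5 and between 2.99 and 3.42 in the other 4 animals, and on scaled mean depth these become 3.35, 4.12 and 6.87 to 7.85.

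The study compared the sexes, and the same comparison was made for the receptor genes on log2(TPM + 1). None of the 4 tested genes passed the threshold. Of the 30238 genes tested, 5 were called at an adjusted p below 0.1 (0.0165%), and these 5 included 0 of the 4 receptor genes. At an unadjusted p below 0.05, where 5.03% of all genes fell, the count was also 0 of 4 by limma. The sexes did not overlap in 9.86% of all genes (4.92% with females higher, 4.93% with males higher) and in 0 of these 4.

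NTRK2 was at 214 ± 69.3 TPM in females and 253 ± 55.2 TPM in males (SD, n = 3 each). The female minus male difference was -0.27 on the log2 scale (SE 0.274, 95% interval -0.90 to 0.35, limma with Benjamini-Hochberg adjusted p = 0.937). It was -0.014 without female 4 and -0.50 without female 3. For NTRK3 the means were 37.5 ± 4.80 TPM in females and 52.4 ± 16.9 TPM in males (SD, n = 3 each). The male values were the more spread, with male 1 low and males 4 and 5 high. Its difference was -0.42 (SE 0.266, 95% interval -1.03 to 0.18, adjusted p = 0.924 by limma). Without male 1 the NTRK3 difference was -0.72, with an unadjusted p of 0.00720 and an adjusted p of 0.561 by limma. Both remaining males were then above all 3 females, and the sexes did not overlap in 23.1% of all genes in that setting. Without male 4 the NTRK3 difference was -0.25 and without male 5 it was -0.30.

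For NGFR and SORT1 the differences with 1 library left out ran from -0.41 to -0.066 and from 0.022 to 0.25. NGFR was at 0.895 ± 0.304 TPM in females and 1.31 ± 0.597 TPM in males (SD, n = 3 each), a difference of -0.27 on the log2(TPM + 1) scale (SE 0.445, 95% interval -1.28 to 0.75, adjusted p = 0.964 by limma). That scale understates changes of a gene near 1 TPM. SORT1 was the only receptor gene with the higher mean in females, at 117 ± 18.6 TPM against 105 ± 12.6 TPM in males (SD, n = 3 each). Its difference was 0.14 (SE 0.185, 95% interval -0.28 to 0.56, adjusted p = 0.949 by limma), the narrowest interval of the 4.

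**Figure D3:**
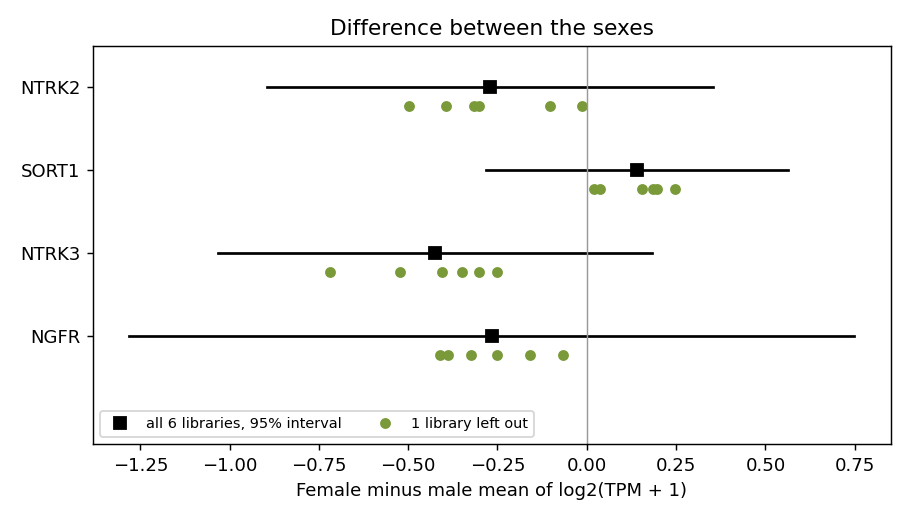
Female minus male difference of mean log2(TPM + 1) for the 4 tested receptor genes, with squares and lines for the value and 95% interval from all 6 libraries (limma) and green points for the value with 1 library left out. All 4 intervals cross 0, and no gene changes sign when a library is left out.

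Several receptor loci are overlapped by other loci, and the study's methods name no strand-specific protocol, so reads in overlapping stretches may not be assigned with certainty. NTRK2 is overlapped by 10 unnamed loci, 9 of them on the opposite strand. The only one on the same strand, MSTRG.30433 from 174432298 to 174434764, measured 2.18, 0.0329 and 0.629 TPM in females 1, 3 and 4 and 8.75, 3.92 and 8.44 TPM in males 1, 4 and 5, all males above all females. These values are small beside the 144 to 316 TPM of NTRK2 itself. NTRK3 is overlapped by 13 unnamed loci, 11 on the opposite strand and 2 without a strand, and none of them reached a median of 1 TPM. Those without a strand were above 0 in male 1 alone, at 5.87 and 5.34 TPM.

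For SORT1 the overlap is larger. An unnamed minus-strand locus, MSTRG.59133, runs from 93917559 to 94008206 and shares 11284 bp with the downstream end of SORT1. It measured 132, 142 and 107 TPM in females 1, 3 and 4 and 129, 126 and 129 TPM in males 1, 4 and 5, a level like that of SORT1. How many reads of the shared stretch were given to either locus was not tested. A further minus-strand locus at that end, MSTRG.59132, had a median of 1.31 TPM. NGFR and NTF3 are overlapped by 0 loci.

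**Figure D4:**
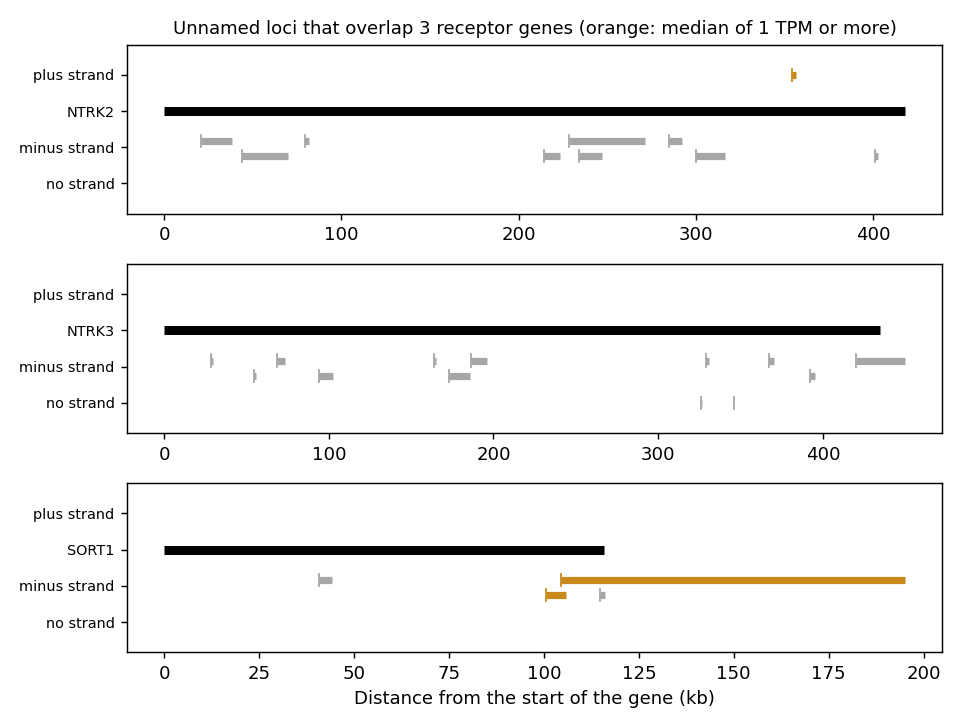
Map of the unnamed loci that overlap NTRK2, NTRK3 and SORT1, drawn to scale in kb from the first base of each gene, with plus-strand, minus-strand and strandless loci on separate levels minus-strand loci spread over 2 rows and an upright line at the first base of each locus. Loci with a median of 1 TPM or more are orange and the others grey, and the long orange locus at the end of SORT1 is MSTRG.59133.

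The genes whose levels over the 6 libraries were most like each receptor gene are given as a description, with Pearson's r of log2(TPM + 1) over 6 animals of both sexes among 9465 named genes with a median of at least 1 TPM. For NTRK2 they were GRIA3, an AMPA receptor subunit gene (r = 0.998), PCNX1 (r = 0.998) and SPTBN1, a spectrin gene (r = 0.995), and 205 genes (2.17%) had an r above 0.95. For NTRK3 they were KCNJ11, a potassium channel gene (r = 0.993), OTUB2, a deubiquitinase gene (r = 0.987), and NPTXR, the neuronal pentraxin receptor gene (r = 0.977), with 30 genes (0.317%) above 0.95. For SORT1 they were CALCRL (r = 0.991), CUL3 (r = 0.986) and HNRNPDL (r = 0.985), with 51 genes (0.539%) above 0.95. With 6 points that share library composition, high values of r arise for many genes. NGFR had a median below 1 TPM and was not ranked.

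NTF4, which encodes the other TrkB ligand NT-4, was listed above 0 only in female 4 (0.0621 TPM) and male 4 (0.154 TPM). It did not pass the filter.

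NGFR was also set beside markers of basal forebrain cholinergic neurons, which are known to make the p75 receptor. CHAT, which makes acetylcholine, measured 1.29 TPM in female 1, 1.28 TPM in female 3 and 0.817 TPM in male 1, and was listed at 0 in the other 3 animals. The summed level of 4 cholinergic markers (CHAT, SLC18A3, SLC5A7 and LHX8) was 6.58 TPM in female 1, 7.999 TPM in female 3 and 11.2 TPM in male 1, against 0.119 TPM in female 4, 0.303 TPM in male 4 and 0.0838 TPM in male 5. The libraries with these markers were thus 2 females and 1 male. NGFR did not follow this split, since its highest value (1.98 TPM) was in male 4 and its lowest (0.621 TPM) in female 1.

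**Figure D5:**
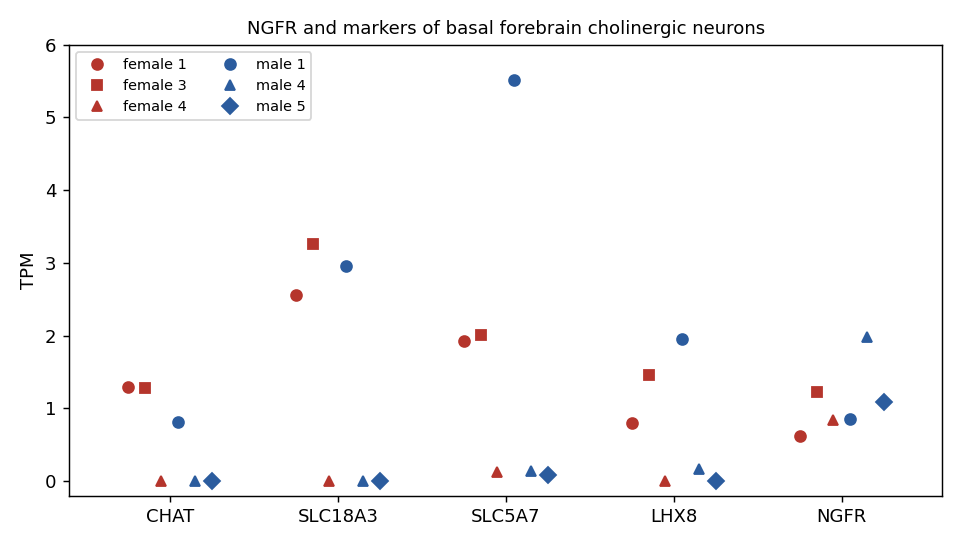
TPM of 4 markers of basal forebrain cholinergic neurons and of NGFR in each library, on a linear axis, with females in red and males in blue. CHAT and SLC18A3 are above 0 in female 1, female 3 and male 1 and at 0 in the other 3 libraries, whereas NGFR is highest in male 4.

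Among the relatives of sortilin, SORL1, an endosomal sorting receptor gene, measured 63.8, 79.2 and 7.96 TPM in females 1, 3 and 4 and 12.8, 75.4 and 81.9 TPM in males 1, 4 and 5. Female 4 and male 1 were far below the other 4 animals, and the same 2 libraries were also the lowest for KIF5C (13.0 and 31.1 TPM, against 62.0 to 123 TPM), GAD2 (8.61 and 16.1 against 43.3 to 87.4) and MEF2C (8.72 and 18.6 against 31.4 to 82.8). GAD2 and MEF2C were named after their values were seen. The gap is thus shared by other genes. For SORL1 the difference between the sexes was -0.30 (SE 0.914, adjusted p = 0.983 by limma). Female 4 and male 1 were also the lowest 2 libraries for NTRK2 (144 and 210.0 TPM, against 216 to 316 TPM) and for NTRK3 (33.4 and 33.1 TPM, against 36.2 to 64.3 TPM), by smaller margins. For SORT1 they stood at 99.7 and 113 TPM, within the range of the other 4 animals (90.8 to 137 TPM). What sets these 2 libraries apart was not tested. SORCS2, which like sortilin can pair with p75, measured 32.5, 34.1 and 19.6 TPM in females 1, 3 and 4 and 19.5, 14.0 and 12.3 TPM in males 1, 4 and 5. All females were above all males, by a narrow margin, with a difference of 0.85 (SE 0.283, unadjusted p = 0.0155, adjusted p = 0.924 by limma). SORCS3 and SORCS1 had medians of 22.1 and 17.2 TPM.

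The other genes of the pathway were taken from 11 lists with 157 genes, of which 116 had a row and 112 were tested. Of these, 0 were called, and 6 (5.36%) had an unadjusted p below 0.05 by limma, near the 5.03% of all genes. The sexes did not overlap for 13 (11.6%, beside 9.86% of all genes), 7 higher in females and 6 higher in males. The counts of separated genes in single lists, given next, rest on few genes each and are read against the same 9.86%. The median female minus male difference was 0.082, beside -0.029 over all genes tested.

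Genes that cleave or process the neurotrophin precursors were abundant. Of 12 tested genes, 0 were called and 0 had separated sexes. CPE, a carboxypeptidase that sorts and trims peptide precursors, had a median of 1905 TPM, SERPINI1, which encodes the protease inhibitor neuroserpin, 611 TPM, and PCSK2, a prohormone convertase, 92.3 TPM. FURIN, the convertase of the secretory pathway that cleaves proneurotrophins, was at 44.2 TPM in male 1 and between 69.5 and 82.7 TPM in the other 5 animals. Of the 8 genes of neurotrophin release and transport, also 0 were called. Their 3 highest medians were KIF5A (528 TPM) and KIF5C (72.0 TPM), both kinesin motor genes, and SYT4 (223 TPM), which encodes a synaptotagmin of dense-core vesicles.

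Of the 14 tested genes of Trk adaptors, 0 were called and 2 had all males above all females. The highest medians were those of GRB2 (163 TPM), which links receptors to Ras, RAPGEF1 (100.3 TPM), an exchange factor for Rap1, and KIDINS220 (99.7 TPM), a substrate of Trk kinases. IRS1, an insulin receptor substrate, had female values of 3.602 to 5.51 TPM and male values of 6.07 to 8.14 TPM, with a difference of -0.58 (adjusted p = 0.924 by limma).

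In the Ras and MAP kinase branch 0 of 15 tested genes were called, 3 had an unadjusted p below 0.05, and the sexes did not overlap in 5. MAP2K1 (median 489 TPM), which encodes a MAP kinase kinase, and NRAS (142 TPM), a Ras gene, had the highest medians. RPS6KA1, which encodes a ribosomal S6 kinase, measured 39.7, 47.0 and 34.9 TPM in females 1, 3 and 4 and 23.1, 19.4 and 6.85 TPM in males 1, 4 and 5, a difference of 1.40 (SE 0.398, unadjusted p = 0.00718, adjusted p = 0.924 by limma). ARAF, an X-linked RAF kinase gene, measured 32.4, 55.4 and 38.0 TPM in females 1, 3 and 4 and 122, 59.1 and 61.7 TPM in males 1, 4 and 5, a difference of -0.89 (SE 0.316, unadjusted p = 0.0217, adjusted p = 0.967 by limma). Neither value passed the threshold.

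In the PI3 kinase and Akt branch 0 of 9 tested genes were called and 0 were separated by sex. The highest medians were AKT1 at 104 TPM and BAD, a gene of cell death control, at 49.1 TPM. In the phospholipase C branch 0 of 12 were called and 4 were separated, 2 in each direction. CAMK2A (median 1534 TPM) and CAMK2B (416 TPM), subunits of the calcium- and calmodulin-dependent kinase of the synapse, led this list. PRKCD, a protein kinase C gene, had female values of 7.99 to 10.2 TPM and male values of 5.70 to 6.56 TPM, with a difference of 0.54 (adjusted p = 0.924 by limma).

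Among co-receptors and partners of p75, 0 of 20 tested genes were called, 2 had an unadjusted p below 0.05, and 1 was separated by sex. RTN4, which encodes Nogo, had a median of 1025 TPM, RTN4R, the Nogo receptor, 308 TPM, and BEX3, a p75-interacting protein, 262 TPM. These levels were far above that of NGFR itself. MAG, a myelin protein that signals through the Nogo receptor and p75, measured 346, 247 and 323 TPM in females 1, 3 and 4 and 146, 89.3 and 63.4 TPM in males 1, 4 and 5. All females were above all males, with a difference of 1.68 (SE 0.297, unadjusted p = 0.000388, adjusted p = 0.880 by limma). MAG is also 1 of the 3 oligodendrocyte markers and made up most of their sums, which did not overlap (348 to 482 TPM for females, 80.7 to 236 TPM for males). MBP and MOG, the other markers of that list, each overlapped between the sexes. The summed TPM of the p75 list was 2936 to 3084 for females and 2440 to 2611 for males. The sums of 1 of the 11 lists were thus separated by sex, while 9.86% of single genes were, so this is not a result about the list. The part of the oligodendrocyte content in this sum was not tested.

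Of 11 tested genes of the activity-dependent transcription of BDNF, 0 were called and 1 had all males above all females. MEF2D (median 175 TPM), a transcription factor gene, CRTC1 (82.2 TPM), a coactivator of CREB, and CAMK4 (57.4 TPM), a kinase of CREB, were the highest. Of the 8 tested genes that TrkB signalling is known to induce, 0 were called and 0 were separated. NPY had a median of 207 TPM, ARC of 125 TPM and HOMER1 of 65.0 TPM. ARC, an immediate early gene of synaptic activity, ranged from 36.1 TPM in male 5 to 213 TPM in female 1, a wider spread than that of NTRK2.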

How the data were processed

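The authors enriched polyadenylated RNA from the PFC of 3 female and 3 male adult tree shrews and mapped it to TS_3.0. Per the submitters' processing notes, HISAT2 2.2.1 and StringTie 2.2.1 were used. The deposited tables hold coverage (the mean depth listed for a locus, as deposited by the authors), FPKM (deposited) and TPM (deposited, scaled within each library by the authors). They hold no read counts, so the count test of the study was not repeated, and no counting intervals or floors were computed. Depth in reads is not given by these tables, and mean coverage stands in for it. The 6 libraries are separate animals.

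Rows of 1 gene ID and chromosome were summed, and 176 genes in the segments of chromosomes X and 26 that the study set apart were left out. The sexes were compared on log2(TPM + 1) by limma 3.58.1 (R 4.3.3) without covariates and with its trend of variance on mean level, for the 30238 genes that reached 0.1 TPM in at least 3 libraries. P-values were adjusted by Benjamini-Hochberg within autosomes and within X, with a threshold of 0.1. A fold on this scale understates the change of low genes. With 3 against 3 an exact permutation test cannot give p below 0.1. Python 3.11.15, pandas 2.3.3, numpy 2.4.6 and matplotlib 3.10.9 served for reading and drawing. The limma fit was first tested on simulated data.

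The members, lists and alternatives were chosen with earlier results of these data known. Named are every member, the 3 strongest genes of each pathway list, list genes called or with separated sexes and a difference of at least 0.5, and the 3 genes most like each member with a median of at least 1 TPM. FURIN, SORCS1, ATF4, CHAT and the other marker genes, and the loci near BDNF and over the receptor genes were named after their values were seen. Some genes that the rule names are not reported here. Alternatives were quantile normalization, median-ratio scaling, FPKM, a pseudocount of 0.1, a filter at 1 TPM or none, loci with a strand only, rows kept apart, a replicate block, limma without the trend, adjustment over all genes, each library left out, and scaled coverage, which was added after the data were seen. RefSeq (TupChi_1.0) was used for names and neighbours only. Transcript and methylation tables were not used here.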

Additional observations from a re-analysis of the deposited data

How the results depend on the processing

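Each of the 4 tested receptor genes kept its direction and had no adjusted p below the threshold in any of 18 alternatives, with differences from -0.50 to -0.014 for NTRK2, -0.72 to -0.25 for NTRK3, -0.46 to -0.066 for NGFR and 0.022 to 0.25 for SORT1. The lowest adjusted p among them was 0.561 (NTRK3 without male 1, limma). Of the genes over the whole table, 5 were called in the main analysis, 8 with a filter at 1 TPM, 1 without the trend in limma, and 2 to 6 with 1 library left out. Of the pathway and marker genes, the 2 called hemoglobin genes became 0 without the trend, and the cause was not tested. With 1 library left out, 0 to 1 of the receptor genes had separated sexes. These were NGFR without female 3, where 19.0% of all genes were separated, SORT1 without female 4 (19.8%) and NTRK3 without male 1 (23.1%). The NTRK2 difference without female 4 was -0.014. On scaled coverage the medians were 114.01 for NTRK2, 82.1 for SORT1 and 12.6 for NTRK3. The median ratio was 8.70 for NTRK2 over NTRK3 and 6.89 for SORT1 over NTRK3 on that scale.

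With the animal number as a replicate block, 3 genes were called over the whole table and 0 of the 4 receptor genes. Only numbers 1 and 4 occur in both sexes, and the labels name no pairs. Deviations from the group means correlated by -0.00475 and 0.0378 between same-numbered animals, and by -0.0617 to 0.0613 between the others. With 3 animals a sex these deviations are not independent, so the correlations cannot decide whether the numbers pair the samples.

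The 3 animals a sex, the joint difference in age, the absence of read counts and the missing gene name of BDNF limit these results. NGFR and NTF3 rest on few reads.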
